A study of Bos taurus with 6 samples.

Results

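The genes described here encode the proteins of the cytosolic ribosome. They were chosen by name: a probe set entered if the array annotation gave it a single symbol made of RPL or RPS and a number, or RPLP0, RPLP1, RPLP2 or RPSA, which leaves out the S6 kinases and the mitochondrial ribosomal proteins. Of 13292 probe sets with a single symbol, 94 met the rule. They stood for 67 of the 9155 named genes: 39 core genes of the large (60S) subunit, 23 core genes of the small (40S) subunit and 5 paralogs, genes that resemble a core gene but lie elsewhere in the genome. The gene value was the mean of its probe sets, of which 49 members had 1 and 18 had several. Of 77 core genes sought, 15 had no probe set under the rule and were not analysed here, among them RPS4X, RPL6 and RPL41.

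The cultures were articular chondrocytes, the cells of joint cartilage, taken from cattle and plated at high density as micromass cultures. TGF-β1 at 5 ng/ml had been present for 8 hours in 3 cultures, and another 3 received vehicle and are called untreated. The study grew cells of 3 cows in both ways, and the labels number the cultures 1 to 3 in each group without saying that the number is the cow. RNA from each culture was amplified over 2 rounds and hybridised to its own Affymetrix Bovine Genome array.

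Each ribosome holds one copy of nearly every one of these proteins, together with the ribosomal RNAs. The genes are therefore among the most evenly and abundantly expressed in animal cells, and several of them, such as RPLP0, RPS18 and RPL13A, are routinely used as reference genes. Their mRNAs carry a terminal oligopyrimidine (TOP) tract at the 5′ end, through which the kinase mTOR sets how often they are translated, so that the output of ribosomal protein can change with little change in mRNA. Cartilage cells need this machinery for the collagen and proteoglycan that they secrete.

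Values are log2 signals from which the median over all 6 arrays had been subtracted in each probe set, so they show differences between arrays and hold no level. Members could therefore not be set against other genes of like level. A difference is TGF-β minus untreated, averaged over the 3 pairs of arrays that share a number. Genes are said to rise or fall where limma's fit with the pair as a term gave a Benjamini-Hochberg adjusted p under 0.05 over all 9155 genes. Standard errors (SE) are those of that fit, which draws the spread of each gene toward that of all genes. For genes whose pairs differ little this widens the SE. The 3 arrays per group limit the precision of every value.

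Both replicate 3 arrays stood apart in 33 cell cycle genes. Replicate 3 minus the mean of replicates 1 and 2 had a median over these genes of 2.46 log2 units with TGF-β and 2.46 log2 units untreated. On the TGF-β array of replicate 2, the 18 probe sets of bacterial spike-in controls were bright, with a median of 1.53 log2 units against -0.17 to 0.06 elsewhere. It also had the lowest 5′ against 3′ signal for eIF-4E (-1.0) and actin (-0.52), where low values are a sign of shorter RNA copies, while its median over 6 such transcripts, -0.06, lay within the range of the other arrays (-0.12 to 0.19). Of 20 cartilage markers, 13 were measured and 2 rose (PRG4 and COMP) while 2 fell (COL11A1 and CNMD), 15.4% each way. Of all genes 2.24% rose and 4.58% fell. Of 20 measured markers of blood, vessel, bone, fat and muscle cells 0 rose and 0 fell. As the values hold no level, they do not show whether any of these markers was expressed.

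With TGF-β, 0 of the 67 ribosomal protein genes rose and 2 fell, the core gene RPL24 and the paralog RPS27L. These are 2.99% of the members, where 2.24% of all genes rose and 4.58% fell in the same fit. The call of RPL24 rested on 1 of its 2 probe sets, which the study's list names as another gene (described below). At an unadjusted p under 0.05 there were 3 members (4.48%), against 2063 of all genes (22.5%). On the groups alone, without the pairs, limma called 0 members, with 2 at an unadjusted p under 0.05 and a lowest adjusted p of 0.406; it called 0 of all 9155 genes as well, with 535 (5.84%) at an unadjusted p under 0.05. The unequal-variance test named in the study's methods called 0 members at the adjusted threshold used here, with 4 (5.97%) at an unadjusted p under 0.05. It called 0 of all genes, with 406 (4.43%). The study's own list used another threshold, a p under 0.05 with at least a 2-fold difference, and its methods name no adjustment.

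The differences of the members were small in either direction. Their median was -0.0207 log2 units, against -0.0096 for all genes, with the middle 50% of members between -0.0643 and 0.0213. For all genes the middle 50% lay between -0.142 and 0.105. The absolute difference had a median of 0.0465 over the members and 0.122 over all genes, and 55 members (82.1%) lay within 0.1 log2 units of no difference, against 42.3% of all genes. The 67 mitochondrial ribosomal protein genes, which serve a separate ribosome, had a median absolute difference of 0.122, and 26 of them (38.8%) lay within 0.1. In that group 0 genes rose and 1 fell, MRPS6 at -0.57, which is 1.49% against 4.58% of all genes.

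**Figure D1:**
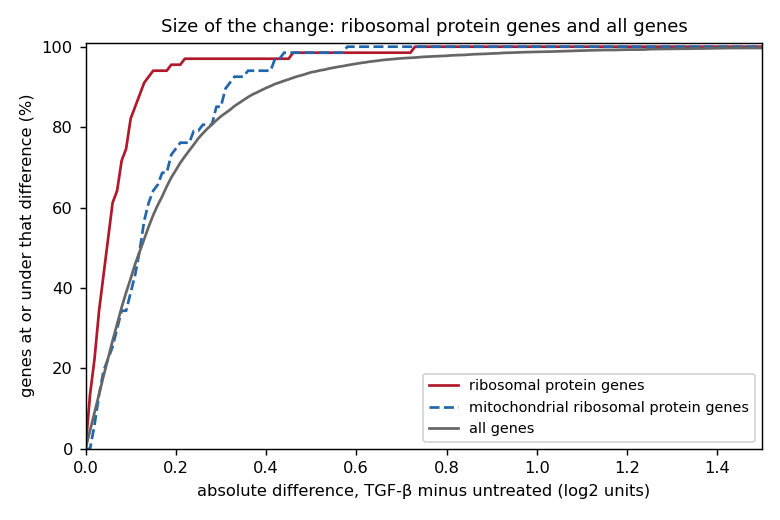
Share of genes (vertical axis, percent) whose absolute difference between TGF-β and untreated arrays is at or under the value on the horizontal axis (log2 units), for the 67 cytosolic ribosomal protein genes, the 67 mitochondrial ribosomal protein genes and all 9155 genes. The curve of the cytosolic genes lies above the others at small differences, with 82.1% at or under 0.1 against 38.8% and 42.3%.

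Members also varied little among the cultures. The range over all 6 arrays had a median of 0.199 log2 units over the members and 0.58 over all genes, and it was under 0.25 in 40 members (59.7%), against 9.47% of all genes. The SD of the 3 pair differences had a median of 0.0624 over the members and 0.164 over all genes. The smallest ranges among the members were those of RPS29 (0.0502), RPL35A (0.0606) and RPS10 (0.0763). The largest were those of RPL24 (1.06), RPS28 (1.03) and RPS27L (0.741). For the 65 members that neither rose nor fell, the 95% intervals of the difference had a median half-width of 0.21 log2 units and bounds between -0.437 and 0.439.

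Among the core genes of the large subunit 0 rose and 1 fell, the other 38 did not pass the test, and the median difference was -0.0207. Of the 39, 29 (74.4%) lay within 0.1 of no difference. Genes often taken as references did not pass the test. RPLP0, a protein of the stalk that recruits translation factors, had values of -0.04, 0.23 and 0.00 on the TGF-β arrays and 0.00, 0.19 and -0.02 on the untreated arrays. In both groups the replicate 2 array was the high one, and the difference was 0.0035 (SE 0.0874, n = 3 pairs). RPL13A, known outside the ribosome as an interferon-responsive repressor of translation in human monocytes, differed by -0.017 (SE 0.0877). RPS18, of the small subunit, differed by -0.05 (SE 0.0886).

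The lowest differences of the large subunit after RPL24 were those of RPL32, RPL4, RPL5 and RPL23, none of which passed the test. RPL32, another frequent reference gene, had values of -0.09, -0.30 and -0.12 on the TGF-β arrays, against 0.03, 0.03 and 0.10 on the untreated arrays. The groups did not overlap, and the difference was -0.22 (SE 0.092, adjusted p = 0.218). RPL4, whose long extension reaches the wall of the peptide exit tunnel, had values of 0.01, -0.43 and -0.01 with TGF-β and 0.11, -0.04 and 0.06 untreated. The TGF-β array of replicate 2 was the lowest, the groups overlapped, and the difference was -0.18 (SE 0.102, adjusted p = 0.348). RPL5, which with RPL11 and 5S RNA forms the particle that restrains MDM2 and so steadies p53, differed by -0.11 (SE 0.0998), and RPL23, on the face toward the small subunit, by -0.11 (SE 0.0905).

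At the other end stood RPL3, RPL7, RPL9 and RPL38, again with 0 calls. RPL3, a protein close to the peptidyl transferase centre, had values of 0.12, -0.20 and 0.22 with TGF-β and -0.08, -0.25 and 0.06 untreated. Each TGF-β array lay above the untreated array of its number, the groups overlapped, and the difference was 0.14 (SE 0.0897, adjusted p = 0.441). RPL38, known in mice for its part in the translation of Hox mRNAs, had values of 0.03, 0.18 and 0.01 with TGF-β, against -0.05, -0.01 and -0.07 untreated. The groups did not overlap, at a difference of 0.12 (SE 0.0886, adjusted p = 0.493). RPL7 differed by 0.13 (SE 0.0967) and RPL9 by 0.13 (SE 0.106), and their single probe sets went different ways.

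Of the 23 core genes of the small subunit 0 rose and 0 fell, 22 (95.7%) lay within 0.1 of no difference, and the median difference was -0.0054. Among the 22 was RPS12, as the mean of 4 probe sets that went different ways (described below). The gene outside 0.1 was RPS19, needed to mature the small subunit and in humans the gene most often mutated in Diamond-Blackfan anaemia. It had values of -0.08, 0.03 and 0.48 with TGF-β and 0.08, -0.16 and 0.07 untreated. The pair differences were -0.16, 0.19 and 0.41, so that pair 1 went against the others, and the mean was 0.15 (SE 0.124, adjusted p = 0.55). RPS9, a protein that helps keep decoding accurate, differed by 0.09 (SE 0.087) without overlap of the groups, RPS3, at the mRNA entry channel, by -0.10 (SE 0.0898) without overlap, and RPS13 by -0.10 (SE 0.0996).

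**Figure D2:**
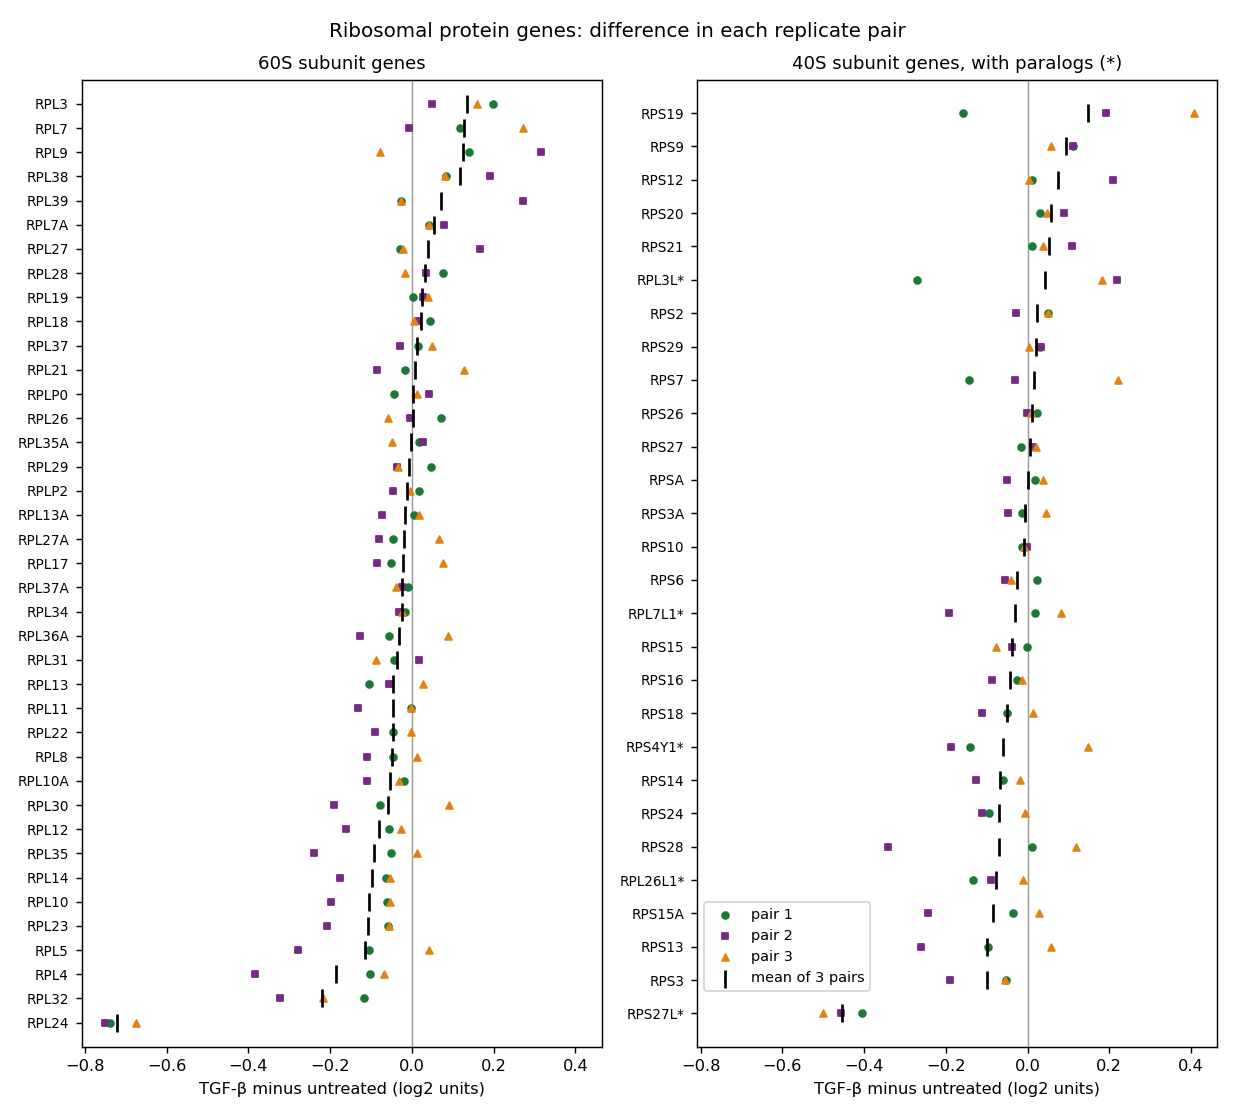
Difference between the TGF-β and the untreated array of each replicate pair (horizontal axis, log2 units) for the 67 ribosomal protein genes, with 60S genes on the left, 40S genes and the 5 paralogs (*) on the right, 1 symbol per pair and a bar at the mean. The bars of 55 genes lie within 0.1 of 0, and RPL24 and RPS27L stand apart at -0.72 and -0.45.

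Counted without a test, 3 members (4.48%) had all TGF-β arrays above all untreated arrays, against 5.05% of all genes, and 5 (7.46%) had all of them below, against 5.83% of all genes. Those above were RPS20, RPS9 and RPL38, and those below RPL24, RPS27L, RPL32, RPS3 and RPS24. Within pairs, 20 members (29.9%) were lower with TGF-β in all 3 and 10 (14.9%) were higher in all 3, against 24.4% and 19.8% of all genes. The difference lay below 0 in 41 members (61.2%) and in 51.9% of all genes.

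This lean to lower values was uneven over the pairs. The median difference of the members was -0.0199 in pair 1, -0.0514 in pair 2 and 0.009 in pair 3 (SD 0.0302), and 42, 47 and 30 of the 67 members were lower with TGF-β in pairs 1, 2 and 3. The TGF-β array of replicate 2, the one with the bright spike-ins, had the lowest of the 6 values in 34 members (50.7%), against 23.2% of all genes. The median over the members on that array was -0.076, against -0.0033 and 0.009 on the other TGF-β arrays and -0.0069 to 0.0214 on the untreated arrays. Without replicate 2, the median difference of the members was -0.00227. The part of that array's spike-in and 5′ signals in the lean was not tested.

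**Figure D3:**
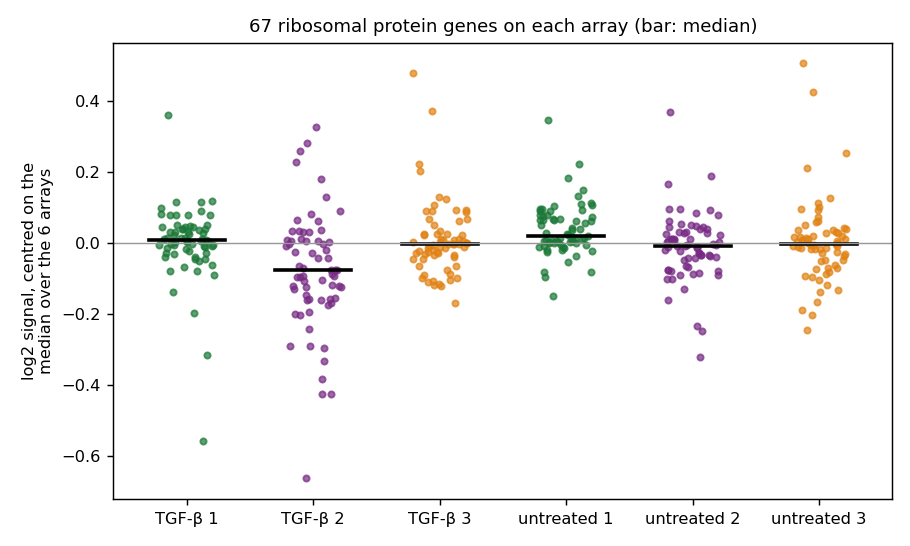
Values of the 67 ribosomal protein genes (log2 signal centred on the median over the 6 arrays, vertical axis) on each TGF-β array, then on each untreated array, with 1 point per gene and a bar at the median. The bar of TGF-β replicate 2 lies at -0.076 and the other 5 bars between -0.0069 and 0.0214.

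The median of the members did not follow the split that set replicate 3 apart in the cell cycle genes. Replicate 3 minus the mean of replicates 1 and 2 had a median over the members of 0.0299 log2 units in the TGF-β cultures. In the untreated cultures it was -0.0053, and for all genes the medians were 0.0129 and 0.0119. Single members departed from this: RPS28, on the mRNA exit side of the small subunit, was higher in replicate 3 by 0.70 in the TGF-β cultures and by 0.42 in the untreated cultures. RPS28 had values of 0.00, -0.66 and 0.37 with TGF-β and 0.00, -0.32 and 0.25 untreated. Replicate 2 was low and replicate 3 high in both groups, pair 2 differed by -0.34, and the difference between the groups was -0.07 (SE 0.114, adjusted p = 0.776).

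RPS27L was the paralog that fell. It encodes a ribosomal protein much like RPS27 and is known in human cells as a target gene of p53. As the mean of 2 probe sets, it had values of -0.31, -0.29 and -0.08 on the TGF-β arrays, against 0.09, 0.17 and 0.43 on the untreated arrays. The groups did not overlap and all 3 pairs went the same way, by -0.41, -0.46 and -0.50. The difference was -0.45 (SE 0.0877, n = 3 pairs, adjusted p = 0.0294), or 1.37-fold lower. Probe set Bt.13898.2.S1_at differed by -0.61 and passed the test over all probe sets (adjusted p = 0.0185), and Bt.13898.1.S1_at differed by -0.30 (adjusted p = 0.161).

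The core gene RPS27 had values of 0.05, 0.01 and -0.10 with TGF-β and 0.07, -0.01 and -0.12 untreated, with the 2 arrays of each pair close together. Its difference was 0.0062 (SE 0.0866, adjusted p = 0.977). The difference between RPS27L and RPS27 was not itself tested. The call of RPS27L was lost when the arrays were quantile normalised (adjusted p = 0.0547) and when replicate 1, 2 or 3 was left out (adjusted p = 0.108, 0.105 and 0.104), with differences of -0.48, -0.45 and -0.43 in the last 3 cases.

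**Figure D4:**
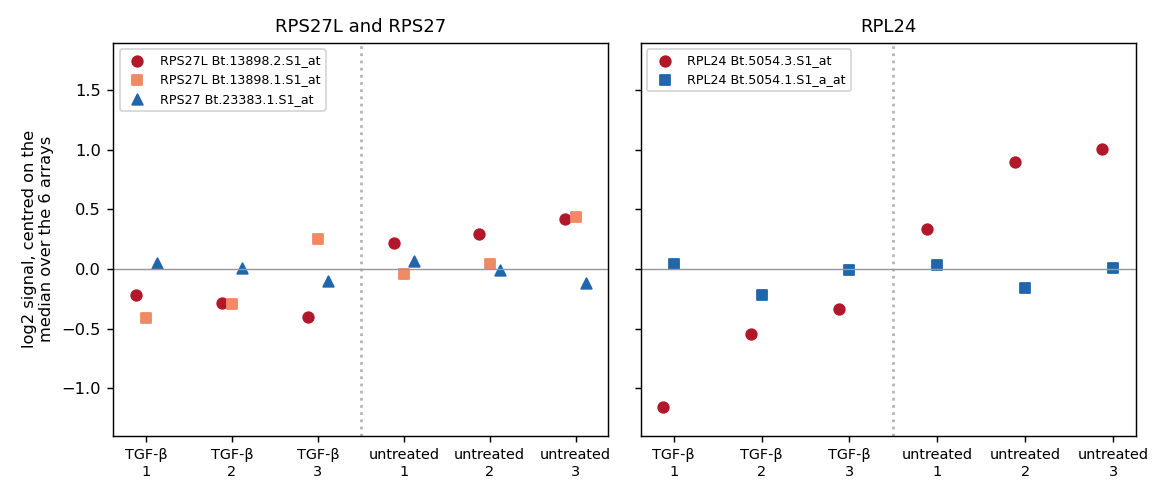
Values of single probe sets (log2 signal centred on the median over the 6 arrays, vertical axis) on the TGF-β and then the untreated arrays, for RPS27L and RPS27 on the left and RPL24 on the right, with 1 point per array. RPS27L Bt.13898.2.S1_at lies below 0 on all 3 TGF-β arrays and above it on all 3 untreated arrays, and in RPL24 this holds for Bt.5054.3.S1_at and not for Bt.5054.1.S1_a_at.

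The other paralogs did not pass the test. RPL26L1 differed by -0.08 (SE 0.0886) beside 0.0028 (SE 0.0888) for RPL26, which besides its place in the large subunit is known to bind p53 mRNA in human cells. RPL7L1, whose yeast relatives act in the making of the large subunit, differed by -0.03 (SE 0.0971) beside 0.13 for RPL7. RPL3L, known as the form of striated muscle, had pair differences of -0.27, 0.22 and 0.18, with a mean of 0.04 (SE 0.121), beside 0.14 for RPL3. RPS4Y1 differed by -0.06 (SE 0.103), and its partner RPS4X was not analysed here.

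RPL24, a late-joining protein of the large subunit at its contact with the small one, had gene values of -0.56, -0.38 and -0.17 with TGF-β, against 0.18, 0.37 and 0.51 untreated. The groups did not overlap, and the difference of -0.72 (SE 0.0873, n = 3 pairs, adjusted p = 0.0064) was the lowest of the 67. It rested on 1 of its 2 probe sets. Bt.5054.3.S1_at had values of -1.16, -0.54 and -0.33 with TGF-β and 0.33, 0.90 and 1.01 untreated, a difference of -1.42 (SE 0.106, adjusted p = 0.000411), or 2.68-fold lower.

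Bt.5054.1.S1_a_at, the other probe set of RPL24, had values of 0.04, -0.22 and -0.01 with TGF-β and 0.03, -0.16 and 0.01 untreated. The groups overlapped in it, and the difference was -0.02 (SE 0.104, adjusted p = 0.952). The array annotation gives both probe sets to RPL24, while the list of regulated genes that accompanies the study names the first one TGFBR3, the gene of the TGF-β co-receptor betaglycan. The sequences of the probes were not used here, so which gene that probe set measures was not settled. Without it, RPL24 differed by -0.0193 (adjusted p = 0.927) and RPS27L alone of the 67 members fell.

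A second name differed in the other direction. The same list names a probe set to which the annotation gives no symbol, Bt.2518.2.S1_at, as RPL5; it is no member under the rule and was looked at after its values were seen. It had values of -0.35, -0.82 and -0.44 with TGF-β, against 0.57, 1.15 and 0.35 untreated, without overlap, and a difference of -1.23 (SE 0.206, adjusted p = 0.0112 over all probe sets). The annotated RPL5 probe set, which is the member, had values of 0.05, -0.19 and -0.05 with TGF-β and 0.15, 0.08 and -0.09 untreated. Its groups overlapped.

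Over the 94 single probe sets of the members, 0 rose and 3 fell (3.19%), where 2.44% of all 24016 probe sets rose and 3.46% fell. The third, beside 1 each of RPL24 and RPS27L, was RPS12 Bt.10381.1.S1_at, at -0.53 (adjusted p = 0.0319). It had values of -0.72, -0.53 and 0.35 with TGF-β and -0.18, 0.18 and 0.70 untreated, lower with TGF-β in each pair although the groups overlapped. Without replicate 2, 1 probe set of the 94 was called.

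Probe sets of the same gene did not always move together. Ribosomal protein genes have many near-identical copies in mammalian genomes, and whether a probe set also reads such a copy was not tested. Among the 18 members with several, the differences of the probe sets spread over more than 0.5 log2 units in 4 (22.2%), against 220 of 2913 genes with several (7.55%), and over more than 1 in RPL24 and RPS12. RPS12, of the small subunit, had 4 probe sets with differences of -0.53, -0.07, 0.02 and 0.88. Its gene mean of 0.08 (SE 0.0937), within 0.1 of no difference, hides this spread. The highest of the 4, Bt.1269.2.A1_at, had pair differences of 0.63, 1.75 and 0.24 and an adjusted p of 0.0737. Its value on the TGF-β array of replicate 2, 1.75, lay far above the others.

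RPL9, of the large subunit, repeated this. Its probe set Bt.24290.1.A1_at had pair differences of 0.55, 1.40 and 0.22, with a mean of 0.72 (adjusted p = 0.0734), and its value on the TGF-β array of replicate 2 was 1.36. The other probe sets of RPL9 differed by -0.08 and -0.27. In RPL32 the probe sets differed by -0.49, -0.18 and 0.01, in RPL3 by 0.37 and -0.10 and in RPL7 by 0.33 and -0.07, with 0 of these 7 past the test.

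**Figure D5:**
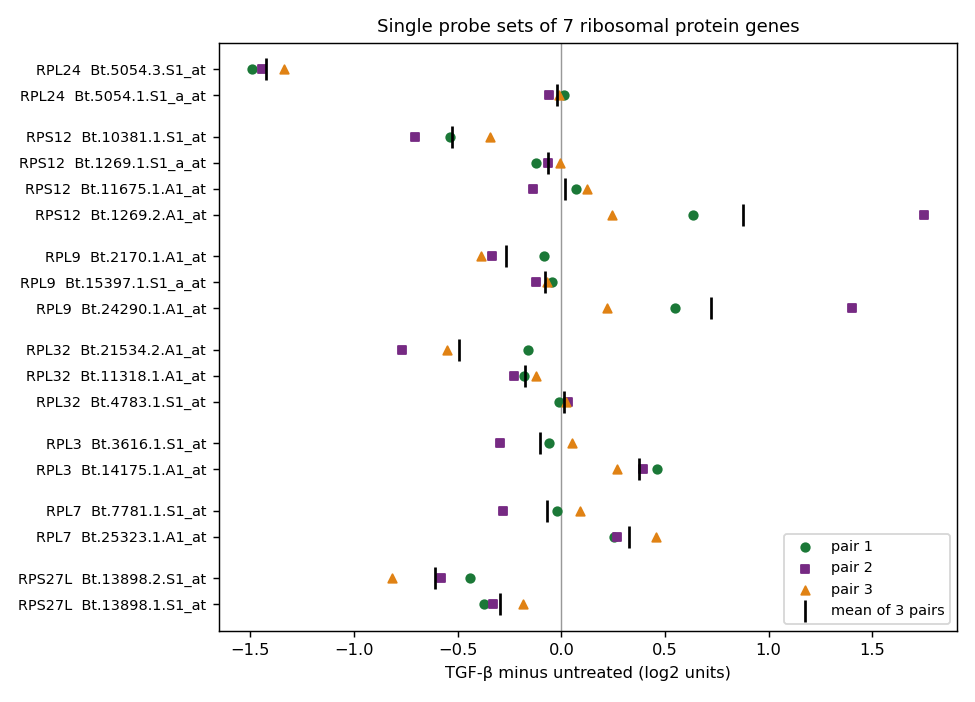
Difference between TGF-β and untreated arrays (horizontal axis, log2 units) for the single probe sets of 7 ribosomal protein genes, with 1 symbol per replicate pair and a bar at the mean. The probe sets of RPL24 and RPS12 spread over more than 1 log2 unit, and pair 2 lies farthest out in the highest probe sets of RPS12 (1.75) and RPL9 (1.40).

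Probe set names of this array carry the letter A or S. Among the members, 6 of 19 probe sets with A (31.6%) differed by more than 0.25 log2 units in either direction, against 4 of 75 with S (5.33%). Over all probe sets the shares were 19.9% with A and 24.9% with S. Members with a single probe set, 49 in all, do not include RPL24 or RPS27L. They had 0 calls and a median difference of -0.0234, and 45 of them (91.8%) lay within 0.1.

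The genes that work with these proteins were taken from lists. Of 2 further ribosomal components that the rule leaves out, 0 were called: RACK1, a scaffold on the small subunit, differed by 0.01 (SE 0.0871), and FAU, which encodes the precursor of a small subunit protein, by 0.0063 (SE 0.0865). Of 20 translation factors and other genes known for a TOP tract, 1 (5%) rose, against 2.24% of all genes, and 0 fell. Their median was -0.063, and -0.0909, -0.1643 and 0.0628 in pairs 1, 2 and 3. The gene that rose was IPO7, an import receptor that carries ribosomal proteins into the nucleus, at 0.52 (SE 0.117, adjusted p = 0.0476). It had values of 0.12, 0.36 and 0.50 with TGF-β, against -0.12, -0.24 and -0.22 untreated, without overlap. Its call was lost without replicate 2 (adjusted p = 0.189), without replicate 3 (0.158), with quantile normalisation (0.0561) and with array medians set to 0 (0.0512). EIF4B and NAP1L1, at -0.36 each, and EIF3D, at -0.26, did not pass, and all 3 had their lowest value on the TGF-β array of replicate 2.

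Of 86 factors that assemble ribosomes, 2 (2.33%) rose, against 2.24% of all genes, and 0 fell. Their median was 0.113 log2 units, with 22 of them (25.6%) below 0. The median was 0.0858 in pair 1, 0.0036 in pair 2 and 0.28 in pair 3 (SD 0.142), and replicate 3 exceeded replicates 1 and 2 by a median of 0.40 with TGF-β and 0.15 untreated. UTP15, of the complex that starts the processing of small subunit RNA, had values of 0.37, 0.18 and 0.24 with TGF-β, against -0.18, -0.46 and -0.62 untreated. The groups did not overlap, at 0.69 (SE 0.0986, adjusted p = 0.0114, and 0.0602 without replicate 2). DDX21, a nucleolar RNA helicase, had a difference of 0.54 (SE 0.0994, adjusted p = 0.0261), higher with TGF-β in each pair with overlap of the groups. Its call was lost without replicate 2 (adjusted p = 0.115) and without replicate 3 (0.0934). KRR1 (0.35) and PPAN (0.37), which act in small and large subunit assembly, did not pass.

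Of 24 other initiation factors and regulators 1 (4.17%) rose, against 2.24% of all genes, and 0 fell. Their median was 0.0825, and 0.0335, -0.0263 and 0.1947 in pairs 1, 2 and 3. The gene that rose was EIF4A1, the helicase that unwinds mRNA leaders, at 0.51 (SE 0.105, adjusted p = 0.0352), a call lost without replicate 2 (0.152) and without replicate 3 (0.114). EIF3J (0.27), EIF4EBP1 (0.36) and EIF3B (0.22) did not pass. Of 20 genes known to control ribosomal protein synthesis 0 rose and 1 (5%) fell, against 4.58% of all genes. This was EEF2K, the kinase that slows elongation by phosphorylating EEF2, at -0.64 (SE 0.0942, adjusted p = 0.0122). EEF2K had values of -0.78, -0.63 and 1.36 with TGF-β and -0.03, 0.03 and 1.87 untreated, with replicate 3 high in both groups, as in the cell cycle genes. Its call was lost without replicate 1 (adjusted p = 0.0611), without replicate 2 (0.0656) and with quantile normalisation (0.0845). MXI1 and RPS6KA3, at -0.35 each, and MLST8, an mTOR complex subunit, at 0.28, did not pass.

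Of the 33 cell cycle genes 0 rose and 2 (6.06%) fell, against 4.58% of all genes. These were MCM4 of the replicative helicase (-0.60, adjusted p = 0.0115) and RRM1 of ribonucleotide reductase (-0.40, adjusted p = 0.0405). MCM4 lost its call without replicate 2 (adjusted p = 0.0565) and with quantile normalisation (0.0824). RRM1 lost it without replicate 1, 2 or 3 (0.176, 0.130 and 0.109) and with quantile normalisation (0.209, at -0.29). NCAPG (-0.53) and KIF20A (-0.39) did not pass. Beside the 82.1% of cytosolic ribosomal protein genes within 0.1 of no difference, the shares were 9 of 20 TOP genes (45%), 29 of 86 assembly factors (33.7%), 12 of 24 initiation genes (50%), 7 of 20 control genes (35%) and 8 of 33 cell cycle genes (24.2%).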

How the data were processed

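The deposited values, on the log2 scale, had been made by the authors with GeneSpring's Robust Multichip Average (background subtraction, joint normalisation of the arrays, summary of probes) and centred per probe set over the 6 arrays. They were used as deposited; scanner files were not used, and no filter on dim probe sets was possible. Of 24128 probe sets, 112 array controls were left out. The annotation gave 86 probe sets several symbols and 10638 none; 13263 were matched through Entrez ID. No pair of arrays shared more than 56 values.

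Members, lists and the naming rule were chosen with earlier results of these data known. Named were called members, the 6 highest and 6 lowest, paralogs with their core genes, 3 reference genes, genes with discordant probe sets, and up to 4 of each list by p; RPS20, RPS24, RPS28, RPS29, RPL35A, RPS10, MRPS6, the cartilage markers and Bt.2518.2.S1_at were added after their values were seen.

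Genes and probe sets were tested 2-sided in R 4.3.3 by the lmFit and eBayes functions of limma 3.58.1, with the replicate number as a block (2 residual and 4.98 prior degrees of freedom; prior SD 0.125). Deviations from group means correlated between arrays of equal number (r = 0.740, 0.694 and 0.845 across probe sets, which are not independent) and at -0.683 to 0.185 otherwise. The labels do not tie a number to a cow. The p-values of this fit rest on the spread of the 3 pair differences, drawn toward the spread of all genes. On simulated data (200 of 9155 genes changed, 10 draws) the fit recovered 37.2% of changes of 0.5 log2 units and 96.4% of changes of 1, with 4.87% of calls false. Such shares rest on what the simulation assumes, so they do not show how many calls on the real arrays are false. Alternatives were the fit without pairs, other normalisations, gene values, priors and tests, and leaving out arrays.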

Additional observations from a re-analysis of the deposited data

How the results depend on the processing

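The count of ribosomal protein genes that rose was 0 in each alternative. The count that fell, 2, became 0 without the replicate block and with the unequal-variance test. Among the 49 members with 1 probe set (an alternative chosen after seeing the data) it was 0 as well. RPL24 and RPS27L have 2 probe sets each and were not among those 49, so this 0 does not bear on their calls. The count that fell became 1 with quantile normalisation and 1 without the probe set that the study's list names TGFBR3. It was 1 in each paired fit without 1 replicate. The gene still called in those fits and with quantile normalisation was RPL24, whose call rests on the probe set named TGFBR3. RPS27L lost its call in each of them. Single arrays were left out only on the groups alone, where the count was 0, as it was there with all arrays. Those fits therefore cannot show what the loss of an array does to the paired calls. Without the replicate block, RPL24 (adjusted p = 0.406) and RPS27L (adjusted p = 0.651) kept their differences and lost their calls; RPL24 kept its call in each of the fits without 1 replicate pair, with adjusted p between 0.0165 and 0.0431. The count of called probe sets, 3, became 0 without the replicate block and 0 with the unequal-variance test, and lay between 1 and 4 without 1 replicate pair. Of the 8 members without overlap, 4 had 1 probe set. The median difference stayed between -0.043 and 4.91e-05. On the groups alone, where the partner of a left-out array stays in, MCM4 turned to 0.0119 without TGF-β replicate 2. Without untreated replicate 3 it turned to 0.323, and RRM1 turned to 0.0751 and 0.247 in the same fits. Without TGF-β replicate 3, MCM4 was at -1.51 and RRM1 at -1.08. Both replicate 3 arrays stood apart in the cell cycle genes, so fits without 1 array of a pair cannot show whether the direction holds. With whole pairs 1, 2 or 3 left out of the paired fit, MCM4 was at -0.615, -0.612 and -0.583. RRM1 was then at -0.395, -0.395 and -0.424. The genes of the other lists named as having risen or fallen (UTP15, DDX21, IPO7, EIF4A1, EEF2K, MCM4 and RRM1) lost their calls without the replicate block (adjusted p between 0.412 and 0.999) and with the unequal-variance test (0.999). The fit without the block and the unequal-variance test used all arrays and each called 0 of all 9155 genes. Every call of the paired fit was thus lost in them, which shows nothing particular to these genes or to the members. Why the calls were lost was not tested. With 3 pairs, uncalled members have intervals of about 0.21 log2 units to either side (median). This width was set largely by the spread that limma takes from all genes. In RPS10 the SD of the pair differences was 0.00596 and the SE 0.0865. Centring removed levels, so background and saturation of single probe sets were not checked. With probe sets of suffix a, s or x left out, 57 members remained, of which 2 fell; RPL24 then rested on the probe set named TGFBR3 alone, at -1.42.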
